A study of Mus musculus with 11 samples.

Results

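Embryonic mouse hearts carrying 1 floxed Gata4 allele and 1 Cre allele at Nkx2-5 were compared with hearts carrying the same floxed Gata4 allele and no Cre. The arrays were taken by the genotype in their titles, which gave 3 arrays of Gata4 flox/+ ; Nkx2-5 cre/+ and 3 arrays of Gata4 flox/+ ; Nkx2-5 +/+, or 6 of the 11 arrays of the series. The series description calls the first genotype double heterozygous and the second control. The other 5 arrays were Gata4 flox/flox ; Nkx2-5 cre/+ hearts, the conditional knockout (CKO). They did not enter the main tests below and were used only in some alternative fits. The tests covered 45037 of the 45101 probe sets in the table, all except the platform's control probe sets. Every array held labelled RNA from pooled whole hearts at embryonic day 9.5, amplified from 50 ng of total RNA. Both groups thus carried the floxed Gata4 allele. They differed by Cre, by the loss of that allele where Cre recombines it, and by whatever the Cre allele does to Nkx2-5. Cre acts only in cells where Nkx2-5 is expressed. How many hearts made a pool, from which litters and strain, and how Cre was placed at Nkx2-5 is not stated in the labels. Nothing says that replicates were separate pools, so the p-values reflect only the variation among these arrays, which may be technical.

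GATA4 is a zinc finger transcription factor and NKX2-5 a homeodomain factor; they bind each other and switch on many of the same heart muscle genes. At this stage the looped heart tube still grows by adding cells from the second heart field, progenitors that express Isl1 and lie behind and in front of the tube. The proepicardium, a cluster of mesothelial cells at the inflow end that needs GATA4 to form, sends out cells that will cover the heart as epicardium. In people, loss of 1 copy of either gene causes congenital heart defects.

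Promoter letters are shown for 4 genes on which the results turn: Nkx2-5, the gene that carries Cre; Cck, the one gene that passed the test; Isl1, the second heart field gene with a large difference; and Tbx18, a leading gene on the lower side. Each window is the 250 bases before a RefSeq transcription start on GRCm38.p6, written 5′ to 3′ on the strand of the gene. Capitals mark matches, on either strand, to the GATA words AGATAA (word 1), AGATAG (word 2), TGATAA (word 3) and TGATAG (word 4), or to the NKX2-5 word TNAAGTG. No 2 of the GATA words can match at the same place. Nkx2-5 lies on the minus strand at chr17:26841566-26841815, Cck on the minus strand at chr9:121495695-121495944, Isl1 on the minus strand at chr13:116309689-116309938 and Tbx18 on the minus strand at chr9:87731261-87731510.
Nkx2-5: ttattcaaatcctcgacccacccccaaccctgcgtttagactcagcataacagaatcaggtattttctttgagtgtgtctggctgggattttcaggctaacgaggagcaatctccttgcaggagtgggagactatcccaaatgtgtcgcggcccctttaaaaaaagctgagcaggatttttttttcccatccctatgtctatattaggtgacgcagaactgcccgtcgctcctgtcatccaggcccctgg
Cck: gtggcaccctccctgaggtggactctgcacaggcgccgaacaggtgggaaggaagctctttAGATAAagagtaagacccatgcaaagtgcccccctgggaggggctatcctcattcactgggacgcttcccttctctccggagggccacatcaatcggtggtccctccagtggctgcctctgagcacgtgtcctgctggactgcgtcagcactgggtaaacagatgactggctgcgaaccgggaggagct
Isl1: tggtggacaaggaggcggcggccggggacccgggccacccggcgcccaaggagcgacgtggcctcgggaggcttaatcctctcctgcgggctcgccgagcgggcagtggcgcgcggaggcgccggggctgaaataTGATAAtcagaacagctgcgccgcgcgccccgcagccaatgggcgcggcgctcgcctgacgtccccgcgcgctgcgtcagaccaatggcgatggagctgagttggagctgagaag
Tbx18: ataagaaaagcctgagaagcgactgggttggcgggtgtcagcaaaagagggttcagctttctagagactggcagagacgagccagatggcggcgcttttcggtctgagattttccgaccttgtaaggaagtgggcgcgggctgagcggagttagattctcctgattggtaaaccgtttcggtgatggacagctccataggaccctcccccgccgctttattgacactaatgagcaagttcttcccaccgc
The Cck and Isl1 windows each held 1 GATA match and no NKX2-5 match. The windows of Nkx2-5 and Tbx18 held neither. Of the 19 genes named first below (Nkx2-5, Gata4, Ccnd2 and 8 leading genes in each direction), 14 had a window in the RefSeq table; 5 had a GATA match in at least one window and 1, Lyz2, had an NKX2-5 match. Counted by window, 6 of the 17 windows of these genes held a GATA match and 1 an NKX2-5 match. Over all 32851 windows of this length in the table, 26.5% held a GATA match and 10.1% an NKX2-5 match. A match of letters is a description of the window and not a binding site.

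Signals are given as log2 of the deposited intensity plus 16 after quantile normalisation over the 6 arrays, and a fold change is on that scale, which understates changes of dim genes. A probe set was called when limma's moderated test gave a Benjamini-Hochberg adjusted p under 0.05. Of 45037 probe sets, 1 was called (0.00222%), on the higher side, and 0 on the lower side. At an unadjusted p under 0.05 there were 2295 probe sets (5.1%), 1050 higher (2.33%) and 1245 lower (2.76%) in double heterozygous hearts. The groups did not overlap for 4660 probe sets (10.3%), 2113 higher (4.69%) and 2547 lower (5.66%). When each of 18193 genes was represented by 1 probe set, 1 was called (0.0055%) and 997 (5.48%) were under that threshold, 459 (2.52%) higher and 538 (2.96%) lower. The 3 arrays of one genotype lay entirely above or below the 3 of the other for 1982 genes (10.9%), 892 higher (4.9%) and 1090 lower (5.99%). The median log2 difference over all genes was -0.00, and a 95% confidence interval reached, at the median, 0.351 log2 units to either side of its estimate. The correlation between arrays ran from 0.981 to 0.99 within a genotype and from 0.984 to 0.989 between the genotypes. Mean deposited intensity ran from 166.4 to 175.6.

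**Figure D1:**
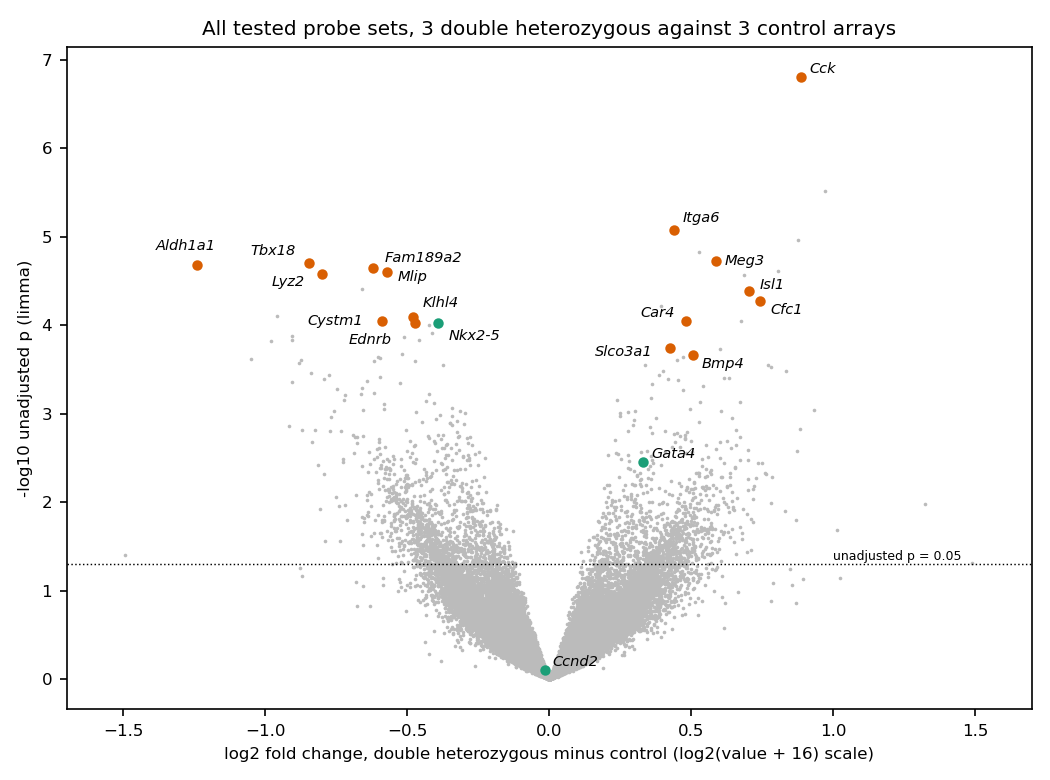
Each point is 1 probe set; the horizontal axis is the log2 difference, double heterozygous minus control, and the vertical axis is -log10 of the unadjusted limma p. The 16 leading genes are orange, the genes Nkx2-5, Gata4 and Ccnd2 green, and Cck alone lies above the rest at an adjusted p of 0.00703.

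The 2 genes named in the genotype came first. Nkx2-5, measured by 1 probe set, had log2 signals of 9.91, 9.89 and 9.99 in the control arrays and 9.61, 9.59 and 9.43 in the double heterozygous arrays. All 3 double heterozygous arrays lay below all 3 control arrays. The log2 difference was -0.39 (SE 0.070, 95% interval -0.54 to -0.24), a 1.31-fold lower signal, with an adjusted p of 0.169, and it was not called. It ranked 25 by p among the probe sets.

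Gata4 had log2 signals of 8.83, 9.15 and 9.15 in control and 9.46, 9.27 and 9.39 in double heterozygous arrays. The groups did not overlap, with the double heterozygous arrays above, and the control array of replicate 1 was the lowest. The log2 difference was 0.33 (SE 0.093, adjusted p = 0.693), and that of its other probe set was 0.41 (SE 0.10, adjusted p = 0.591); neither was called. The labels do not say where these probe sets lie relative to the floxed part, so they neither check the deletion nor measure intact transcript.

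Ccnd2, which encodes cyclin D2 and is the target gene named in the series title, is a driver of the G1 to S step. Its brightest probe set read 11.67, 11.65 and 11.73 in control and 11.62, 11.58 and 11.80 in double heterozygous arrays, and the groups overlapped. The log2 difference was -0.02 with a 95% interval of -0.15 to 0.12 (adjusted p = 0.995). Of its 7 probe sets, 3 had a higher and 4 a lower mean, and 0 had an unadjusted p under 0.05.

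Cck, which encodes the peptide hormone and neuropeptide cholecystokinin, was the gene that rose. Its log2 signals were 8.55, 8.53 and 8.29 in control and 9.40, 9.25 and 9.37 in double heterozygous arrays. The lowest double heterozygous array was well above the highest control array, and the gap between groups exceeded the spread within either. The log2 fold change was 0.89 (SE 0.086, 95% interval 0.70 to 1.07), a 1.85-fold rise, with an adjusted p of 0.00703. The size of the change was steady, from 0.80 to 0.93 over 18 other ways of running the fit, while the call was kept in 11 and lost in 7. It was lost without control replicate 1 (adjusted p = 0.0511), control replicate 2 (0.0848), double heterozygous replicate 1 (0.268) or double heterozygous replicate 3 (0.117). It was also lost when all 11 arrays shared 1 estimate of the spread (0.228). Without double heterozygous replicate 2 the number of called probe sets was 6, and without control replicate 3 it was 2.

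The 7 other leading genes on the higher side were not called. Isl1, a LIM homeobox gene that marks second heart field cells, read 6.75, 7.06 and 7.13 in control and 7.68, 7.58 and 7.79 in double heterozygous arrays. The groups were separated by more than the range of either. The log2 difference was 0.70 (SE 0.11, adjusted p = 0.124), and the other Isl1 probe set gave 0.81 (adjusted p = 0.0929). Meg3, an imprinted long noncoding RNA expressed from the maternal allele, read 9.25, 9.41 and 9.65 in control and 10.01, 10.05 and 10.01 in double heterozygous arrays. The double heterozygous arrays were nearly equal and the control arrays were spread out. The difference was 0.59 (SE 0.088, adjusted p = 0.0929), all 11 Meg3 probe sets had a higher mean, and 8 of them had an unadjusted p under 0.05. Without control replicate 3, the highest control array, the difference was 0.69 and passed the test (adjusted p = 0.0453).

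Itga6, the alpha 6 integrin subunit of laminin receptors, had a higher mean at both of its probe sets, by 0.44 and 0.53 (adjusted p = 0.0929 for each). Cfc1, which encodes Cryptic, a co-receptor of Nodal signalling, read 6.09, 6.39 and 6.09 against 7.04, 6.83 and 6.93, a difference of 0.74 (SE 0.12, adjusted p = 0.151). No control array reached a double heterozygous array. Bmp4, a ligand that steers second heart field cells toward heart muscle, differed by 0.51 (SE 0.099, adjusted p = 0.26). Car4, a membrane-bound carbonic anhydrase, differed by 0.48 (adjusted p = 0.169) and Slco3a1, an organic anion transporter, by 0.42 (adjusted p = 0.244). Of the 5 probe sets with the smallest p-values, 2 were not assigned to 1 gene symbol, having none or several. These had higher means by 0.97 and 0.88 (adjusted p = 0.0685 and 0.0929).

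**Figure D2:**
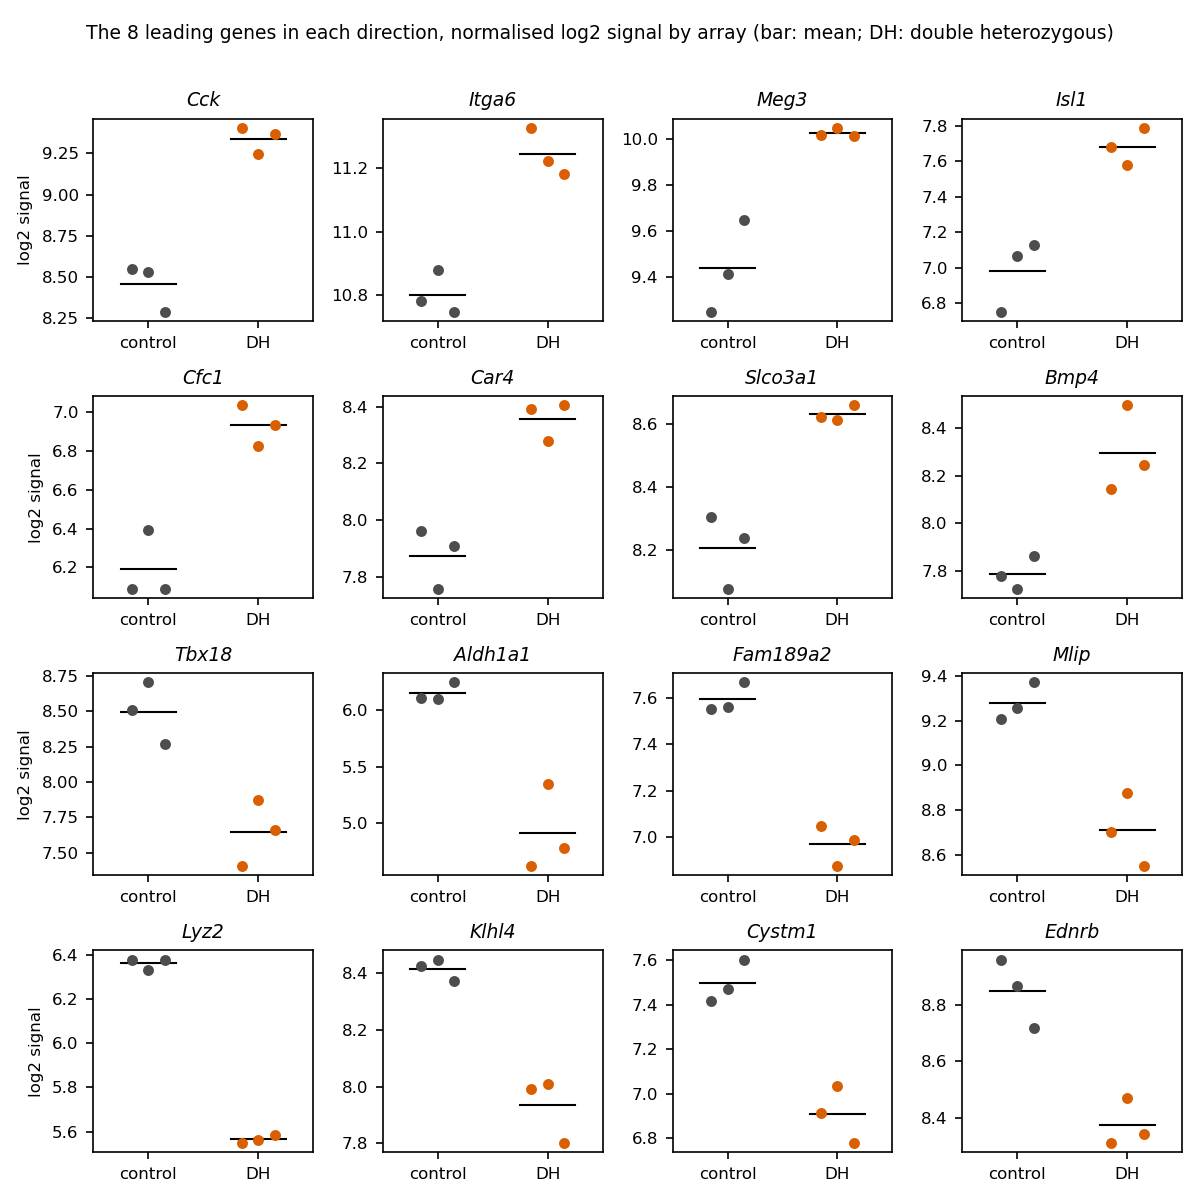
Normalised log2 signal of the 8 leading genes on the higher side (top rows) and the 8 on the lower side (bottom rows) in the 3 control arrays (grey) and the 3 double heterozygous arrays (DH, orange); bars are group means. The groups do not overlap in any panel, as the choice of these genes required, and Cck passed the test.

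On the lower side 0 genes were called, and the 8 leading genes are given as values. Tbx18, a T-box factor of the proepicardium, epicardium and sinus venosus, read 8.51, 8.70 and 8.27 in control and 7.41, 7.87 and 7.66 in double heterozygous arrays. Double heterozygous replicate 2 lay closest to control, and the groups did not overlap. The log2 difference was -0.85 (SE 0.13, adjusted p = 0.0929), a 1.80-fold lower signal, and the other probe set gave -0.64 (adjusted p = 0.315).

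Aldh1a1, a retinaldehyde dehydrogenase that makes retinoic acid, read 6.11, 6.10 and 6.25 in control and 4.62, 5.35 and 4.78 in double heterozygous arrays. The control arrays were close together and double heterozygous replicate 2 was again the nearest to them. The difference was -1.24 (SE 0.19, adjusted p = 0.0929), and without that array it was -1.45 and passed the test (adjusted p = 0.0166). Its difference ran from -1.96 with a constant of 1 added before taking logs to -0.60 with a constant of 64.

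Mlip, a muscle protein that binds lamins A and C, read 9.21, 9.26 and 9.37 against 8.70, 8.87 and 8.55, a difference of -0.57 (SE 0.088, adjusted p = 0.0929), while its dimmer probe set gave 0.02. Lyz2, the lysozyme of macrophages and granulocytes, read 6.38, 6.33 and 6.38 against 5.55, 5.56 and 5.59, with very little spread in either group, a difference of -0.80 (SE 0.12, adjusted p = 0.0929). Fam189a2 had a lower mean at all 3 probe sets, by -0.62 at the one that represents it (adjusted p = 0.0929). Ednrb, the endothelin B receptor, differed by -0.47, Klhl4 by -0.48 and Cystm1 by -0.59 (adjusted p = 0.169 for each). Their other probe sets gave -0.35 and -0.14 for Ednrb, 0.008 for Klhl4 and 0.009 for Cystm1.

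The markers of proepicardium and mesothelium, a list of 12 genes, gave the widest shift of any list. None was called, but 11 of the 12 had an unadjusted p under 0.05 on the lower side, where 2.96% of all genes did, and 8 of the 12 had groups that did not overlap on that side, where 5.99% of all genes did. The median log2 difference of the list was -0.58, against -0.00 over all genes. Its members Aldh1a1, Itga4, Tcf21, Lrrn4 and Krt19 are also on a list, given at the end, that was chosen on arrays including these controls. In pooled whole hearts fewer proepicardial cells and less RNA per cell cannot be told apart.

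Itga4, the alpha 4 integrin subunit by which epicardial cells hold on to the heart muscle, read 7.29, 7.61 and 7.25 in control and 5.97, 6.84 and 6.40 in double heterozygous arrays. It differed by -0.98 (SE 0.18, adjusted p = 0.211) with no overlap. Upk1b, a uroplakin of mesothelium, read 6.79, 6.82 and 7.07 against 5.83, 6.40 and 5.72, a difference of -0.91 (SE 0.17, adjusted p = 0.211). In both genes double heterozygous replicate 2 stood between the other double heterozygous arrays and the control arrays. Tcf21, a factor of epicardial fibroblast precursors, read 8.25, 8.20 and 8.14 against 7.19, 7.82 and 7.72, a difference of -0.62 (SE 0.14, adjusted p = 0.378) with the groups apart.

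Upk3b, another uroplakin, differed by -0.79 (adjusted p = 0.742) and overlapped control through replicate 2, as did Wt1, the zinc finger factor of mesothelium, at -0.42 (adjusted p = 0.899). Aldh1a2, the main retinoic acid enzyme of the embryo, overlapped too, at -0.41 (adjusted p = 0.973). The members Lrrn4 (-0.55), Msln (-0.42), which encodes mesothelin, and Sema3d (-0.41), a semaphorin of the proepicardium, had groups that did not overlap. Krt19, a keratin of mesothelium and other epithelia, went the other way at 0.18 with overlapping groups. Tbx18 and Aldh1a1, described above, are the other members.

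Measured per array as the median deviation of the 12 genes from their control means, the list stood at -0.08, 0.04 and -0.02 in control arrays and at -0.96, -0.39 and -0.56 in double heterozygous arrays 1, 2 and 3. The summed linear signal of the 12 genes was 1792 to 2087 in control and 1188 to 1521 in double heterozygous arrays. Replicate 2 was nearest to control on both measures. Leaving out any single array left 8 to 11 members under the threshold on the lower side and a median between -0.68 and -0.44. The one-way analysis without moderation left 4. Here and below, that analysis also used all 11 arrays on the deposited scale, so moderation was not its only change. Without double heterozygous replicate 2, Aldh1a1 and Upk1b passed the test, the latter at 3 probe sets.

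**Figure D3:**
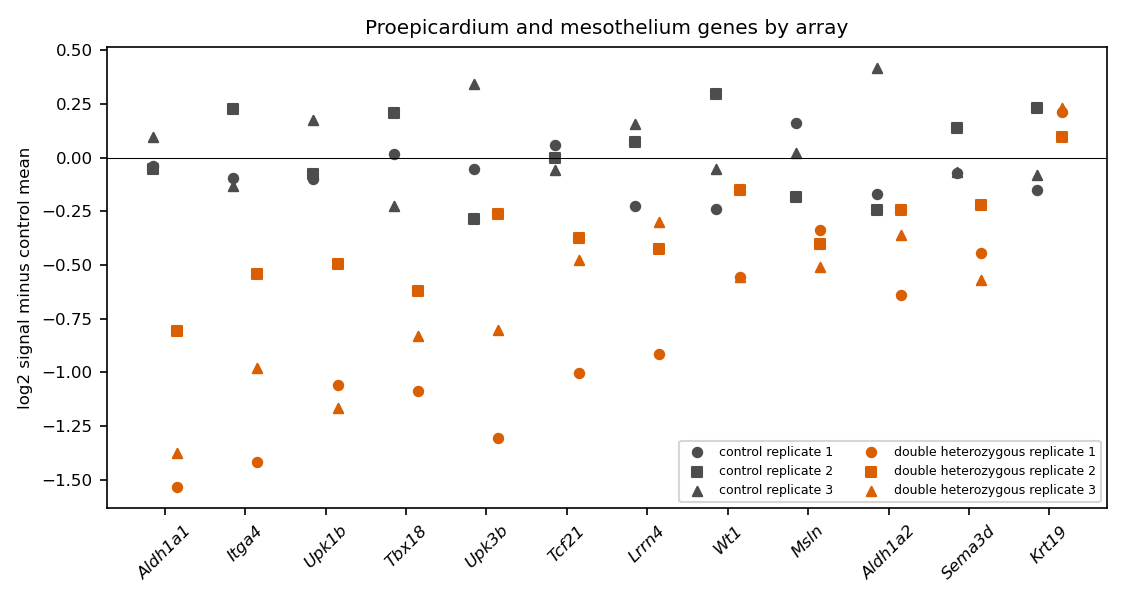
Log2 signal minus the control mean for the 12 proepicardium and mesothelium genes in each array; grey marks are control arrays, orange marks double heterozygous arrays, and the shape gives the replicate number. The orange marks lie below the grey ones in 8 genes and overlap them in Upk3b, Wt1, Aldh1a2 and Krt19, with replicate 2 (square) often the highest orange mark.

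Markers of other cells in the dissected heart were read beside these values. For the list counts at an unadjusted p under 0.05 here and below, the shares over all genes were 2.52% higher and 2.96% lower. Of 10 white blood cell and platelet genes, Lyz2 and Pf4, a platelet and macrophage chemokine (-0.47, adjusted p = 0.677), had an unadjusted p under 0.05. The summed signal of all 10 genes was 574 to 589 in double heterozygous arrays against 659 to 727 in control arrays. The defining leukocyte genes Ptprc (0.01) and Csf1r (0.10) overlapped. Erythroid genes had 0 of 12 members under the threshold in either direction. The heart muscle genes were present in every array, and the summed signal of 27 sarcomere genes, 104093 to 105765 in control and 104961 to 109575 in double heterozygous arrays, overlapped. Markers of foregut and liver (1 of 14 higher, 1 lower), neural crest (1 of 9 higher, 1 lower), neural tissue (1 of 10 higher, 2 lower) and skeletal muscle progenitors (0 of 10) included many weak signals: the median deposited intensity was below 16 for 6 foregut and liver genes, 3 neural crest genes, 4 neural genes and 8 skeletal muscle progenitor genes. Without double heterozygous replicate 2, 5 of the 14 foregut and liver genes were higher. The part of these cells in the differences above was not tested.

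The endothelial and endocardial markers past the unadjusted threshold split. Of 19 genes, 15 had a higher and 4 a lower mean, with a list median of 0.07. At an unadjusted p under 0.05, 3 were higher and 4 lower. Tek, the angiopoietin receptor TIE2, read 8.99, 8.90 and 8.93 against 8.67, 8.69 and 8.56, a difference of -0.30 (SE 0.073, adjusted p = 0.547). Sox18, an endothelial transcription factor, read 7.33, 7.39 and 7.59 against 7.84, 7.69 and 7.83, a difference of 0.36 (adjusted p = 0.677). The groups did not overlap for either gene, in opposite directions. Flt1, a VEGF receptor (0.35), lay on the higher side, and Npr3 (-0.26), an endocardial natriuretic peptide receptor, Ets1 (-0.28) and Fli1 (-0.43) on the lower. After median centring 2 were higher and 2 lower.

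Of 25 cardiac transcription factors, 6 were higher and 4 lower at an unadjusted p under 0.05, and 0 were called; the list median was 0.04 and changed sign in 3 of 17 alternatives. All 3 cardiac GATA factors lay on the higher side: Gata4, then Gata5 at 0.25 (adjusted p = 0.855) and Gata6 at 0.19 (adjusted p = 0.912), each without overlap. Hand2 (0.17) and Tbx5 (0.23), both needed for chamber growth, were also without overlap, while Hand1 (0.49) overlapped, since double heterozygous replicate 2 lay at 8.57 and control replicates 2 and 3 at 8.59 and 8.79. On the lower side with Nkx2-5 were Irx5, Hopx and Hey2.

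Hopx, a homeodomain-only protein of early heart muscle, read 10.75, 10.81 and 10.86 against 10.41, 10.66 and 10.32. The groups did not overlap, and the difference was -0.34 (SE 0.081, adjusted p = 0.5), with -0.29 at its other probe set. Irx5, an Iroquois factor, read 7.59, 7.53 and 7.74 against 7.02, 7.15 and 7.35, a difference of -0.45 (SE 0.11, adjusted p = 0.532). Hey2, a Notch target of compact ventricular muscle, differed by -0.20. Leaving out double heterozygous replicate 3 lowered the count on the higher side to 2, and leaving out control replicate 1 lowered it to 3. It was 2 after median centring or with no intensity trend and 0 in the one-way analysis without moderation.

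Genes that textbooks place downstream of either factor include some that the factor activates and some that it holds down, so their medians do not measure a common response. Of 23 genes described as dependent on NKX2-5, 4 were higher (Isl1, Hand1, Msx2 and Popdc2) and 6 lower (Hopx, Kcne1, Mycn, Nppa, Nppb and Rspo3), with a median of -0.01. Of 16 described GATA4 targets, 3 were higher (Bmp4, Hand2 and Myh7) and 4 lower (Nkx2-5, Erbb3, Nppa and Nppb), with a median of -0.02. The counts moved by more than 1.5 times when single arrays were left out: without control replicate 3 there were 6 NKX2-5-dependent genes on the higher and 2 on the lower side, and 2 and 1 GATA4 targets. Msx2, a homeobox factor on the NKX2-5 list, read 7.30, 7.07 and 7.14 against 7.36, 7.61 and 7.61. It differed by 0.36 (SE 0.11, adjusted p = 0.755) with the groups just apart.

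Of 20 second heart field genes, 5 were higher and 1 lower at an unadjusted p under 0.05, against 2.52% and 2.96% of all genes, and the median was 0.14. The higher members were Isl1, Bmp4, Rgs5 (0.48), Osr1 (0.50) and Hand2. The lower one was Sema3c, a guidance molecule of the outflow tract, which read 7.98, 8.16 and 8.19 against 7.75, 7.78 and 7.81. It differed by -0.33 (SE 0.086, adjusted p = 0.625) with no overlap. Fgf8 (0.23), Fgf10 (0.14) and Tbx1 (0.14), the growth factors and T-box gene of the anterior progenitors, overlapped, as did Mef2c (0.00). The median was 0.03 without double heterozygous replicate 3 and 0.06 without replicate 1. Without control replicate 2 the count on the higher side was 3, and without control replicate 1 the count on the lower side was 3.

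Of 19 BMP pathway genes, 7 were higher and 0 lower at an unadjusted p under 0.05, where 2.52% and 2.96% of all genes were. The higher ones covered a ligand pair, Bmp4 and Bmp5 (0.18), and the signal carriers Smad1 (0.29) and Smad4 (0.20). They also included the feedback inhibitor Smad6 (0.22) and the immediate targets Id1 (0.36) and Id3 (0.18). Id1 read 8.98, 8.81 and 9.02 in control and 9.37, 9.28 and 9.24 in double heterozygous arrays, with no overlap (SE 0.077, adjusted p = 0.321). Bmp2 (-0.12), the ligand of the atrioventricular canal, and the receptors Bmpr1a (-0.00) and Bmpr2 (-0.05) were not among them. The median deviation per array was -0.02 to 0.04 in control and 0.06 to 0.09 in double heterozygous arrays, and the list median was 0.12, between 0.05 and 0.14 over the alternatives. The higher count was 4 after median centring, 2 with no intensity trend or with all 11 arrays in the fit, and 0 in the one-way analysis without moderation.

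WNT genes had 5 of 14 members higher and 1 lower. Fzd7, a WNT receptor, read 7.57, 7.71 and 7.08 against 8.10, 7.91 and 8.16, a difference of 0.60 (SE 0.14, adjusted p = 0.469); control replicate 3 was the lowest array. Wnt2, a ligand of the inflow region, differed by 0.32 (adjusted p = 0.782), and the secreted antagonists Dkk1, Sfrp2 and Sfrp5 by 0.54, 0.38 and 0.23. Rspo3, which strengthens WNT signals, differed by -0.19. FGF genes had 3 of 15 higher and 0 lower (Fgfr1, Spry1 and Dusp6), falling to 0 without control replicate 1 or double heterozygous replicate 3. Notch genes had 1 of 15 higher, the ligand Jag1 (0.22), and 2 lower, the ligand Dll1 (-0.47) and Hey2; without double heterozygous replicate 3 both counts were 0. The retinoic acid list had 3 of 13 higher (Crabp1, Crabp2 and Cyp26b1, which bind or break down retinoic acid and its precursors) and 2 lower, the synthesis enzymes Aldh1a1 and Aldh1a2. The higher count was 0 without control replicate 2 or double heterozygous replicate 1 and 1 without double heterozygous replicate 3.

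The contractile apparatus gave small differences with small errors. Of 27 sarcomere and smooth muscle filament genes, 5 were higher and 0 lower at an unadjusted p under 0.05, with a median of 0.02. Tagln, the smooth muscle protein SM22, read 11.56, 11.58 and 11.67 against 11.86, 11.84 and 11.82, a difference of 0.24 (SE 0.053, adjusted p = 0.425). Acta1, skeletal alpha actin, read 11.72, 11.81 and 11.80 against 12.12, 11.98 and 11.97, a difference of 0.25 (SE 0.058, adjusted p = 0.478). The groups did not overlap for either gene or for Acta2 (0.38), Des (0.23) and Myh7 (0.11). The count was 3 without control replicate 2 or 3, 2 after median centring and 0 in the one-way analysis without moderation, and the median was -0.01 on the deposited scale.

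Genes of the working chambers and trabeculae leaned the other way, with 6 of 18 lower and 1 higher and a median of -0.11. They were Mlip, Smpx, Fhl2 (-0.24), Hey2, and the natriuretic peptides Nppa (-0.21) and Nppb (-0.20). Smpx, a small muscle protein of the costamere, read 11.27, 11.42 and 11.39 against 11.10, 11.23 and 10.89, a difference of -0.29 (SE 0.080, adjusted p = 0.677). Nppa read 11.88, 11.90 and 12.02 against 11.65, 11.95 and 11.58, so that double heterozygous replicate 2 lay inside the control range. The higher gene was Tgfb2 (0.26). The lower count was 3 without control replicate 3 or double heterozygous replicate 3, 1 after median centring, 2 with no intensity trend and 1 in the one-way analysis without moderation. Calcium handling and conduction genes had 0 of 17 higher and 1 lower, Kcne1, a potassium channel subunit, at -0.39 (adjusted p = 0.955).

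Few cell cycle genes differed past the unadjusted threshold. Of 25 DNA replication genes 0 had an unadjusted p under 0.05, and their differences ran from -0.24 (Tyms) to 0.07. Of 23 genes of G2, mitosis and cytokinesis 0 did, between -0.13 (Ttk) and 0.10 (Cdc20). Among 17 regulators of the G1 to S step 1 did, the proto-oncogene Mycn, which read 9.84, 9.92 and 9.90 against 9.71, 9.64 and 9.78. It differed by -0.18 (SE 0.064, adjusted p = 0.907) at the probe set that represents it, while the mean of its 3 probe sets gave 0.08. Of 18 CDK inhibitors and p53 response genes 0 were higher and 2 lower, Ccng1 (-0.20) and Perp, a p53 target and desmosome protein, which read 7.68, 7.67 and 7.42 against 7.09, 7.11 and 6.73. Perp differed by -0.62 (SE 0.12, adjusted p = 0.26) with no overlap. The lower count of that list was 1 without control replicate 1 or 2 or double heterozygous replicate 1 or 3.

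Hypoxia and glycolysis genes had 0 of 18 members under the threshold and a median of 0.04. Oxidative metabolism genes had 0 of 21 higher and 2 lower, Cox6a2 (-0.23) and Acadm (-0.18), with a median of -0.05. Without double heterozygous replicate 2 the lower count was 5 and the median -0.10, and without replicate 3 they were 1 and -0.01. Immediate early and heat shock genes had 1 of 16 higher (Fos, 0.32), and unfolded protein and amino acid stress genes had 0 of 12. Of 17 imprinted growth genes 4 were higher, Meg3 and its cluster neighbour Mirg (0.39), Phlda2 (0.36) and Peg3 (0.31), and 1 was lower, Plagl1 (-0.36), with a median of 0.02. The higher count was 2 without control replicate 2, double heterozygous replicate 1 or double heterozygous replicate 3, and 6 without control replicate 3. Cushion mesenchyme genes had 4 of 16 higher and 0 lower (Snai1, Twist2, Tgfb2 and Msx2), falling to 1 without control replicate 1 or double heterozygous replicate 3. Over 32 lists together there were 455 distinct genes, of which 88 had an unadjusted p under 0.05 and 0 were called. Over all genes the share under that threshold was 5.48%, and the lists were chosen with earlier results of these data known. Cck belonged to none of the lists.

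**Figure D4:**
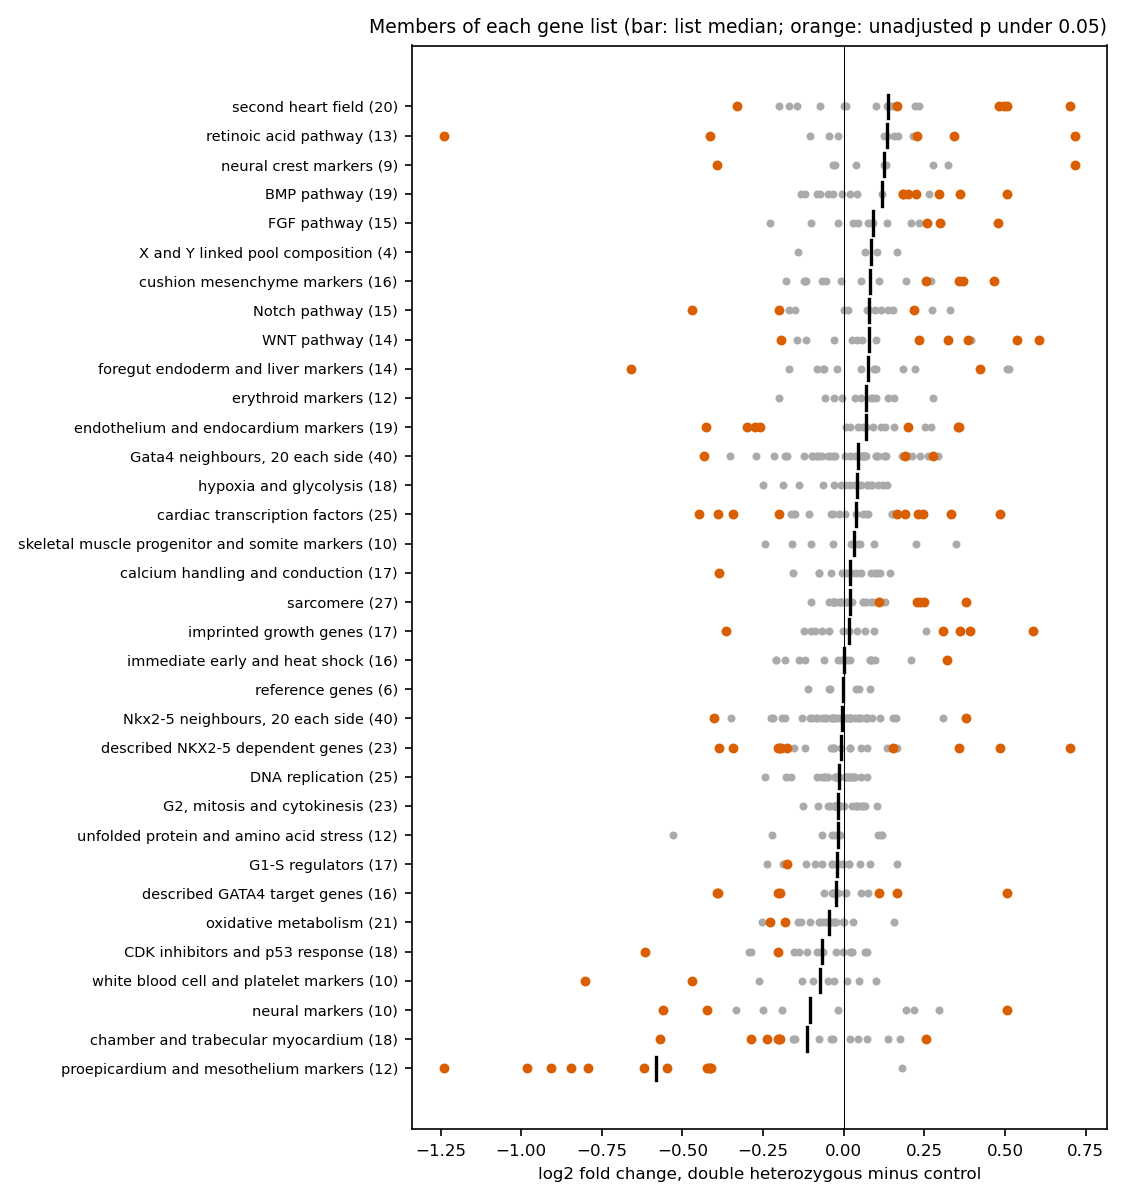
Log2 difference, double heterozygous minus control, of every measured member of each gene list, with the number of members in brackets; black bars are list medians and orange points have an unadjusted p under 0.05. The proepicardium and mesothelium list lies apart at a median of -0.58, and the other lists plotted have medians between -0.11 and 0.14; the list of genes that differed most between CKO and control arrays is not plotted.

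Genes beside the 2 targeted loci were counted because chromosome segments can travel with an engineered allele. Of the 40 measured genes nearest to Nkx2-5, 20 on each side, 1 was higher and 1 lower at an unadjusted p under 0.05, with a median of -0.01. Of the 40 nearest to Gata4, 2 were higher and 1 lower, with a median of 0.04, which was -0.004 with 40 genes on each side. Both groups carried 1 floxed Gata4 allele, so a segment travelling with that allele cannot show in this comparison. Over all genes the shares were 2.52% and 2.96%.

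The leading genes are set beside the CKO arrays as levels only, on a scale normalised over all 11 arrays. The CKO and double heterozygous values are each read against the same 3 control arrays, so the 2 sets of values are not independent. Cck lay between 8.22 and 8.48 in control, 9.19 and 9.34 in double heterozygous and 9.41 and 9.95 in CKO arrays. Isl1 lay between 6.71 and 7.08, then 7.52 and 7.73, then 8.01 and 8.54. Meg3 lay between 9.19 and 9.59, then 9.95 and 9.99, then 10.44 and 10.98. For these 3 genes the 3 genotypes occupied separate ranges, in the order control, double heterozygous, CKO.

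Itga4 took the opposite order, between 7.20 and 7.55 in control, 5.96 and 6.80 in double heterozygous and 4.94 and 6.18 in CKO arrays, the last ranges overlapping. Mlip lay between 9.15 and 9.31, then 8.49 and 8.82, then 7.06 and 8.10. Aldh1a1 lay between 6.09 and 6.23 in control, 4.63 and 5.36 in double heterozygous and 4.02 and 5.44 in CKO arrays.

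Other genes held a different order. Fam189a2 was lowest in the double heterozygous arrays, with a low of 6.83 and a median of 6.94, against 7.49 to 7.61 in control and 7.27 to 7.86 in CKO arrays. Itga6 lay between 11.12 and 11.26 in double heterozygous and 11.06 and 11.35 in CKO arrays, both above the control range of 10.68 to 10.81. Nkx2-5 lay between 9.37 and 9.54 in double heterozygous arrays and 8.78 and 9.64 in CKO arrays, both below the control range of 9.83 to 9.93. Gata4 lay between 9.21 and 9.40 in double heterozygous and 9.28 and 9.53 in CKO arrays, both above the control range of 8.77 to 9.09. The signal of this Gata4 probe set was thus not lower in CKO arrays than in control arrays. Ccnd2 lay between 11.59 and 11.67 in control, 11.52 and 11.74 in double heterozygous and 11.03 and 11.48 in CKO arrays. Tbx18 lay between 8.21 and 8.64 in control, 7.35 and 7.82 in double heterozygous and 6.47 and 8.27 in CKO arrays, so that the CKO range spanned the double heterozygous range and reached the control range. Klhl4 lay between 7.74 and 7.95 in double heterozygous arrays, below the control range of 8.31 to 8.38 and just below the CKO range of 7.95 to 8.48. The CKO ranges of Bmp4 (7.87 to 8.27), Cystm1 (6.72 to 7.40) and Lyz2 (5.57 to 6.25) overlapped the double heterozygous ranges of 8.08 to 8.43, 6.74 to 6.99 and 5.56 to 5.60. Krt19 lay between 8.71 and 9.09 in control and 8.96 and 9.09 in double heterozygous arrays, and between 10.29 and 10.61 in CKO arrays.

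**Figure D5:**
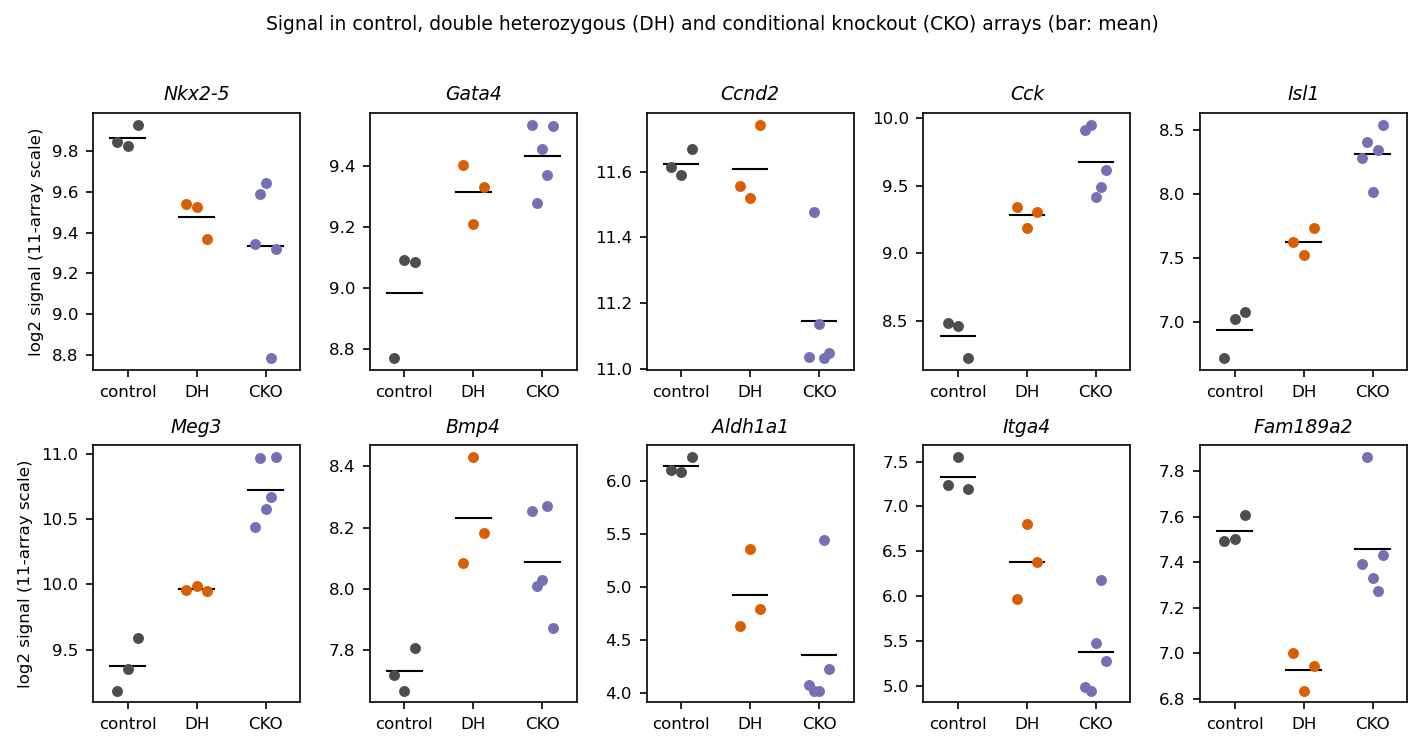
Log2 signal on the scale normalised over 11 arrays for 10 genes in control (grey, 3 arrays), double heterozygous (DH, orange, 3) and conditional knockout (CKO, purple, 5) arrays; bars are means. Cck, Isl1 and Meg3 occupy 3 separate ranges, the double heterozygous arrays are lowest for Fam189a2, and the Ccnd2 ranges of control and double heterozygous arrays overlap.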

How the data were processed

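RNA of pooled embryonic hearts was measured on 6 single-channel expression arrays, 3 double heterozygous and 3 control. The authors deposited 1 linear intensity per probe set and array, made with PLIER per the submitters' processing notes; the labels give neither its version nor any scaling between arrays. Arrays number 3 a group, which limits the precision.

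Here 64 control probe sets were left out, log2(intensity + 16) was quantile normalised over the 6 arrays, and the genotypes were compared with limma 3.58.1 in R 4.3.3, with an intensity trend and no filter, on 4 residual degrees of freedom (12.62 with the prior). Two-sided p-values were adjusted by Benjamini-Hochberg over 45037 probe sets, and called at under 0.05. The scripts were checked on simulated data. GEO's platform annotation gave 34945 probe sets 1 symbol, 932 several and 9160 none; 34741 were matched to RefSeq and 0 symbols changed. The brightest probe set with 1 symbol represented each of 18193 genes, but probe sets named _x_at or _s_at were passed over where the gene had another. The probe set used is therefore not always the brightest of its gene. Named genes were Nkx2-5, Gata4 and Ccnd2, the called genes, filled to 8 in each direction by smallest p among genes whose groups did not overlap, and the 2 of smallest p in each list; other list members were named after their values were seen. The 33 lists hold 489 genes, of which 461 were measured. The comparison, its lists and its tests were chosen with earlier results of these data known, and 1 list, the genes that differed most between CKO and control arrays, was chosen on arrays used here. No 2 of the 6 arrays shared more than 0.828% identical values, so all were kept as separate samples. Alternatives were the added constant, the scaling, the arrays and spread model of the fit, a filter on dim probe sets, the replicate number as a block, averaging all probe sets of a gene, the number of neighbouring genes, and leaving out each array.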

Additional observations from a re-analysis of the deposited data

How the results depend on the processing

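With 3 arrays a genotype, the count of called probe sets moved with most choices. It was 1 with an added constant of 1 or 64, with quantile normalisation over 11 arrays and with dim probe sets left out. It was 2 on the deposited scale, 4 after median centring, 13 with robust empirical Bayes (8 higher, 5 lower) and 0 with all 11 arrays in the fit, with no intensity trend or in the one-way analysis without moderation. The limma fits with all 11 arrays or no trend had 1435 and 2493 probe sets at an unadjusted p under 0.05. The unmoderated analysis, also on all 11 arrays but on the deposited scale, had 1021. Leaving out single arrays gave 0 to 6 calls; where 0 were called, 1551 to 2731 probe sets had an unadjusted limma p under 0.05. The cause was not tested. Cck was among the calls in 11 of 18 alternatives and kept its direction in all 18, and its adjusted p ran from 0.00145 to 1. The robust fit called Itga6, Aldh1a1, Meg3, Tbx18, Mlip, Isl1, Hjv, Fam189a2 and Lyz2 beside Cck and 2 probe sets not assigned to 1 symbol.

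With the replicate number as a block, 5 probe sets were called (3 higher, 2 lower): Cck, Tbx18, Itga4 and 2 without a symbol. The deviations of same-numbered arrays from their group means correlated at 0.0222, -0.0137 and 0.0928, and 3 of 6 arrays correlated best with their own number, so the numbers were not taken as pairs.

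Ccnd2, which was not called, ran from -0.08091 to 0.0264 when an array was left out, and was above 0 without control replicate 3 (0.003165), double heterozygous replicate 1 (0.009368) or replicate 2 (0.0264). Other uncalled genes changed sign as well: with the mean of all probe sets, Mycn was at 0.08268, Meox2 at 0.02792 and Eif2s3y at -0.04908; with an array left out, Hba-a1 ran from -0.3905 to 0.002509, Eif2s3y from -0.0607 to 0.3798 and Xist from -0.4569 to 0.1021 (0.0507 without double heterozygous replicate 1). The list median of the proepicardium and mesothelium genes ran from -0.78 to -0.44 and kept its sign in 17 of 17 alternatives, with 4 to 11 members under the unadjusted threshold on the lower side. Scaling moved the median of all probe sets by no more than 0.1 log2 units (-0.0373 on the deposited scale).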

Other observations

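A list of 16 genes that differed most between CKO and control arrays was read in the double heterozygous arrays. It was chosen on arrays that include the same controls, so it is no independent evidence of a direction. Its members Aldh1a1, Itga4, Tcf21, Lrrn4 and Krt19 are also markers of proepicardium and mesothelium, so the counts of those lists share genes. None of the 16 genes was called, 1 was higher and 8 lower at an unadjusted p under 0.05, and the median was -0.36. Sparcl1, an extracellular matrix protein of the SPARC family, read 6.08, 6.34 and 6.09 in control and 6.85, 6.97 and 6.60 in double heterozygous arrays, a difference of 0.63 (SE 0.13, adjusted p = 0.31). Aqp4, a water channel, read 6.51, 6.77 and 6.62 against 5.99, 6.26 and 5.90, a difference of -0.58 (SE 0.13, adjusted p = 0.469). Slitrk5, a neuronal membrane protein, differed by -0.66 and the mitochondrial aldehyde dehydrogenase Aldh1b1 by -0.50, each with no overlap between the groups. On the scale of 11 arrays Sparcl1 lay between 6.07 and 6.32 in control, 6.57 and 6.92 in double heterozygous and 7.78 and 8.52 in CKO arrays.

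X and Y linked genes were read as a description of the pools. Xist, expressed from the inactive X chromosome of females, read 8.11, 8.64 and 9.11 in control and 8.10, 8.24 and 9.11 in double heterozygous arrays. Eif2s3y, on the Y chromosome, read 7.72, 7.31 and 6.83 against 7.68, 7.29 and 7.39. Both genes overlapped between the groups. The 6 measured reference genes lay between -0.11 (Tbp) and 0.08 (Hprt).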
